A study of Mus musculus with 16 samples.

Results

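Myosin heavy chains are the motor proteins of the thick filament, and myosin binding proteins are the accessory proteins that sit on it. The 10 mouse genes described here were the sarcomeric heavy chains *Myh6*, *Myh7*, *Myh7b*, *Myh3* and *Myh8*, the non-muscle heavy chain *Myh10*, and the binding protein genes *Mybpc1*, *Mybpc3*, *Mybph* and *Mybphl*. They were chosen by name, and every probe that the scanner files assign to one of them was taken, which gave 17 of the 55681 probes and 10 of the 31982 gene names on the microarray. The measured values played no part in that rule, but earlier results of these data were known when it was set.

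The question was how these transcripts differ between cardiomyocyte (CM) fractions with a low and a high surface level of integrin α6 (ITGA6, CD49f), a difference that the study used to separate ventricular from atrial CMs. All hearts came from CD1 wild-type mice, with no transgene. At embryonic day (E) 15.5, cells that carried the CM surface receptor ERBB-2 were flow sorted into CD49flow (EL) and CD49fhigh (EH) cells, and at postnatal day (P) 2, cells depleted of non-myocytes with magnetic beads were sorted into CD49flow (PL) and CD49fhigh (PH) cells without the ERBB-2 gate. Each of the 4 groups had 4 samples, every sample was a pool of 20 to 30 embryonic or 15 neonatal hearts with at least 50000 sorted cells, and cRNA amplified from 10 ng RNA and labeled with Cy3 was hybridized to 16 one-color microarrays with 60-base probes. The samples are numbered 2, 3, 6 and 8 at E15.5 and 2, 3, 4 and 5 at P2.

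In the mouse heart, *Myh6* encodes the fast α-myosin heavy chain and *Myh7* the slow β-myosin heavy chain. The β form prevails in the fetal ventricle and gives way to the α form around birth, a switch driven largely by thyroid hormone, whereas the atria use the α form early on. Both genes lie next to each other on the same strand of chromosome 14, with *Myh7* upstream of *Myh6*. Myosin binding protein C holds the heads of myosin in reserve, with *Mybpc3* as the cardiac and *Mybpc1* as the slow skeletal gene, and *Mybphl* encodes a shorter relative known from atrial and conduction tissue.

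Values are normalized signal intensities, quantile normalized across the microarrays, and means are given ± SD with n = 4. A gene counts as measured in a comparison where the scanner software marked its brightest probe as well above background throughout 1 of both groups or both. Where 1 group alone qualifies, this filter favors a difference toward that group, so that counts of genes passing in 1 direction are descriptions. The shares of measured probes set beside such counts are of probes measured in any of the 4 groups. Differences were fitted with limma over all probes. A gene passed where the p adjusted after Benjamini and Hochberg did not exceed 0.05, and was called where the change also reached 3-fold. Where a group had the probe well above background on 0 of 4 microarrays, the fold is a lower bound, taken against the dimmest signal that counts as measured. The exact permutation test of 4 against 4 microarrays cannot give a p below 0.0286, and it gave this value wherever both groups did not overlap. The share of probes well above background was 38.8% to 41.0% (EL), 40.9% to 46.5% (EH), 35.7% to 39.8% (PL) and 37.0% to 40.6% (PH), and 0 spots were saturated.

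The CM label was checked against 9 CM marker genes. All 9, among them *Tnnt2*, *Tnni3*, *Actn2* and *Ryr2*, were well above background on every microarray, with *Actc1*, the cardiac actin gene, the most abundant. Their summed signal was 455400 to 485500 (EL), 458800 to 493700 (EH), 560000 to 626900 (PL) and 533600 to 564100 (PH).

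Of the 10 genes, 7 had their brightest probe above background on all 16 microarrays, namely *Myh6*, *Myh7*, *Myh7b*, *Myh8*, *Myh10*, *Mybpc3* and *Mybphl*. The brightest *Mybpc1* probe was so on 7, that of *Mybph* on 6 and that of *Myh3* on 2 of 16.

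**Figure D1:**
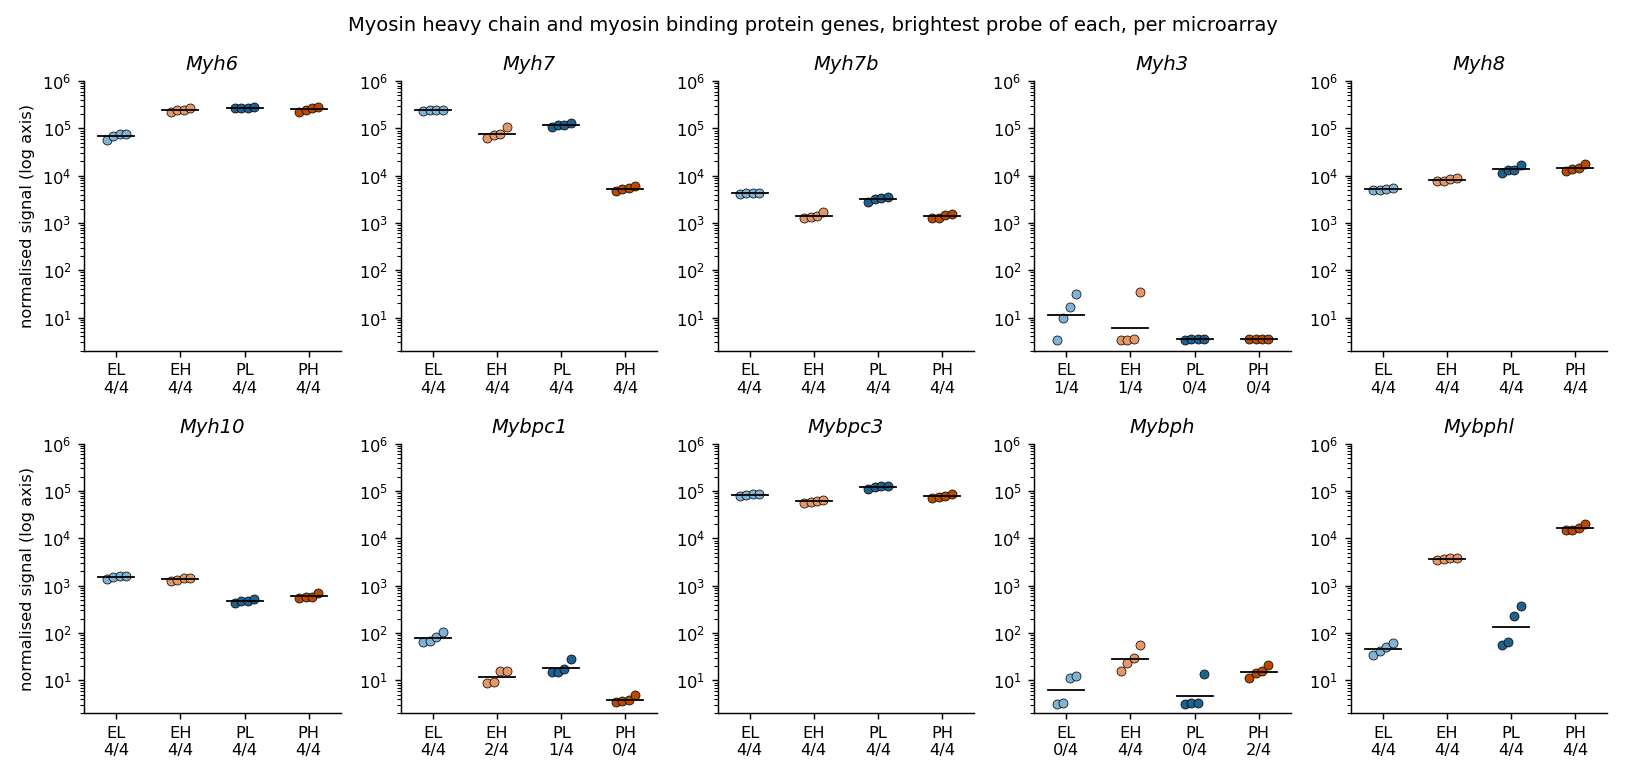
Normalized signal of the brightest probe of each of the 10 genes on a log axis, with 1 point per microarray, the geometric mean of each group as a line, and the number of microarrays well above background under each group name. *Mybphl* lay at 34.5 to 377 in the ITGA6low and at 3531 to 20400 in the ITGA6high samples, whereas *Myh6* was low in EL alone.

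*Myh6* was lower in EL than in the other 3 groups. Its brightest probe covers the end of the coding sequence (mm9, chr14:55560774-55560833, minus strand), of which the bases up to the stop codon are given beside those of the *Myh7* probe (mm9, chr14:55589581-55589640, minus strand), since both probes cover the same place in neighboring genes. The stop codons are in capitals, and the rest of both probes lies in the untranslated end.
Myh6, probe 1: gcacgacgaggaaTAA
Myh7, probe: atgaggagTAG

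On this probe, *Myh6* read 76950, 74610, 69190 and 56560 in the EL samples and 248600, 263100, 248600 and 227000 in the EH samples. The PL samples read 263100, 272100, 286800 and 263100, and the PH samples 227000, 263100, 286800 and 248600. All EL values lay below all others, and the other 3 groups overlapped. *Myh6* was 3.58-fold higher in EH than in EL (log2 1.84, SE 0.0975, adjusted p = 1.18e-07) and 3.94-fold higher in PL than in EL (log2 1.98, adjusted p = 1.45e-08). PH and PL differed by -0.09 on the log2 scale (SE 0.0975, adjusted p = 0.751), and PH and EH by 0.05 (adjusted p = 0.821). The difference between fractions itself differed between the stages, with an interaction of -1.93 (SE 0.138, adjusted p = 6.54e-06). In bulk samples, fewer cells of a type and less RNA per cell cannot be told apart.

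Several *Myh6* and *Myh7* values recur exactly, because quantile normalization gives the same value to the same rank and both probes rank among the very brightest. Scaling each microarray to its 75th percentile instead keeps their spread: the *Myh6* difference between EH and EL was then 1.33 (adjusted p = 2.42e-04), which is below 3-fold, and that between PH and PL was -0.46 (adjusted p = 0.16). The interaction was -1.80 there (adjusted p = 0.0012).

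A second *Myh6* probe lies upstream of the first in the gene (mm9, chr14:55584132-55584191). It is shown because 2 places in the same gene could be compared.
Myh6, probe 2: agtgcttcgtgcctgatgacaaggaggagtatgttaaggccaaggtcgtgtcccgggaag

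This probe read 979, 1126, 911 and 633 in the EL samples and 7262, 7700, 7554 and 6220 in the EH samples. PL samples 2 and 3 read 6214 and 6456 but PL samples 4 and 5 read 17860 and 19130, and the PH samples 11790, 11770, 10790 and 15900. EL was again below all others, and the PL samples fell into a lower and a higher pair that enclosed all PH values. EH was 8.02-fold above EL (SE 0.339 on the log2 scale, adjusted p = 5.92e-05), PH and PL differed by 0.20 (SE 0.339, adjusted p = 0.896), and the interaction was -2.80 (adjusted p = 0.00472). Over the 16 microarrays, both probes correlated with r = 0.952, a description over samples that share groups and slides.

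*Myh7* was lower in the ITGA6high fraction at both stages, and far more so at P2. The EL samples read 248600, 248600, 248600 and 234700, and the EH samples 63840, 74260, 73240 and 105400. The PL samples read 120300, 132700, 116700 and 107400, and the PH samples 5369, 5164, 6026 and 4807. All 4 groups were separate, in the order EL, PL, EH and PH from high to low. EH was 3.15-fold below EL (log2 -1.66, SE 0.128, adjusted p = 2.12e-06; -1.58 without EH sample 2, which is just under 3-fold), and PH was 22.3-fold below PL (log2 -4.48, SE 0.128, adjusted p = 1.67e-10). The fall from E15.5 to P2 was 2.06-fold in ITGA6low cells (log2 -1.04, adjusted p = 3.93e-05) and 14.6-fold in ITGA6high cells (log2 -3.87, adjusted p = 1.15e-09). The interaction of -2.83 (SE 0.181, adjusted p = 2.27e-06) was past 3-fold.

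A further probe, named *LOC100862557* in the files, abuts the *Myh7* probe with 0 bases between them (mm9, chr14:55589521-55589580, minus strand). It had the pattern most like that of *Myh7* of all other gene names, with r = 0.989 over the 16 microarrays. Its mean signal was 225300 (EL), 136100 (EH), 178100 (PL) and 11390 (PH), the same order as the *Myh7* probe. The *Myh7* probe had means of 245100 (EL) and 79190 (EH), which lie further apart than those of the abutting probe. Probes that abut on the same strand are not independent measures.

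Set together, the log2 level of *Myh7* over that of *Myh6*, counted from the EL mean, was -3.495 ± 0.38 (EH), -3.02 ± 0.13 (PL) and -7.42 ± 0.13 (PH) (SD, n = 4). Counted with *Myh6* probe 2 instead, it was -4.66 ± 0.43, -4.64 ± 1.00 and -9.32 ± 0.37, with the wider spread of that probe in PL. In ITGA6low cells both genes moved with stage, *Myh6* up by 1.98 on probe 1 and *Myh7* down by 1.04 on the log2 scale. In ITGA6high cells *Myh7* fell by 3.87, and *Myh6* had a difference of 0.05 on probe 1 that did not pass. On probe 2, *Myh6* rose by 3.60 in ITGA6low cells (adjusted p = 3.82e-06). In ITGA6high cells that probe gave 0.80, which did not pass (adjusted p = 0.144), although all PH samples lay above all EH samples.

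**Figure D2:**
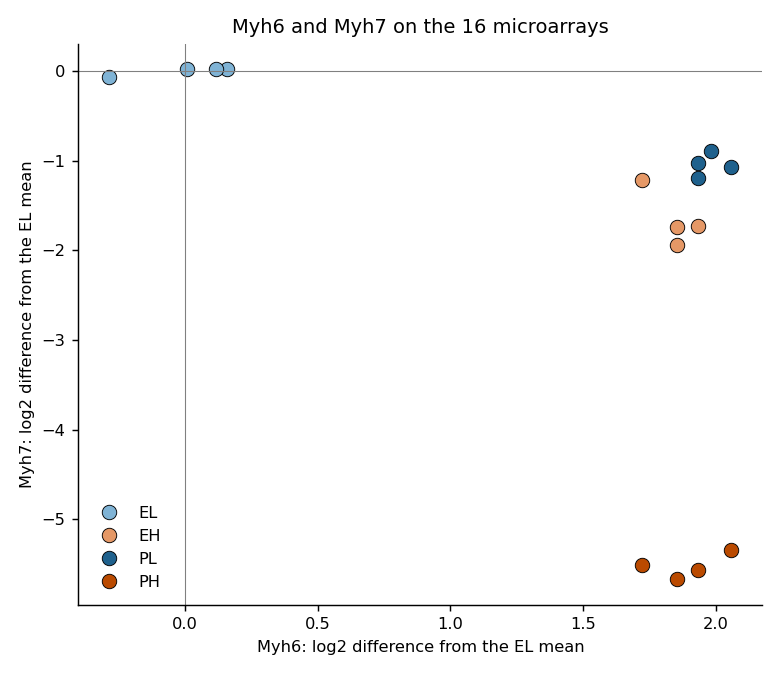
*Myh6* against *Myh7* on the 16 microarrays, by the brightest probe of each, both as log2 differences from the EL mean, 1 point per microarray. EL is alone on the left, and EH, PL and PH share the range of *Myh6* while PH lies lowest in *Myh7*.

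*Myh7b* is a slow myosin heavy chain of ancient origin that is transcribed in heart and slow muscle. Its probe lies on the plus strand (mm9, chr2:155459122-155459181) and is shown as that of the gene next to *Myh7* in kind.
Myh7b, probe: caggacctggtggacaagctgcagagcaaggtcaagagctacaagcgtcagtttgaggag

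The EL samples read 4337, 4239, 4198 and 4230 on it, the EH samples 1331, 1405, 1297 and 1670, the PL samples 3545, 3293, 2838 and 3405, and the PH samples 1458, 1247, 1279 and 1547. The ITGA6low samples lay above the ITGA6high samples at both stages, and EH and PH overlapped. EH was 2.996-fold below EL (log2 -1.58, SE 0.0964, adjusted p = 3.22e-07), just short of the 3-fold limit, and PH was 2.37-fold below PL (log2 -1.24, adjusted p = 8.74e-07). The interaction missed the threshold (0.34, SE 0.136, adjusted p = 0.287). In ITGA6low cells the level fell by 0.38 from E15.5 to P2 (adjusted p = 0.0109), a call that was lost when scaled to the 75th percentile (-0.32, adjusted p = 0.143).

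These 3 genes are also known as hosts of the microRNAs that muscle carries inside its myosin genes. In RefSeq (GRCm38.p6), the hairpins of *Mir208a*, *Mir208b* and *Mir499* lie within *Myh6*, *Myh7* and *Myh7b*, in this order. The array carried 0 probes for them, so their levels were not measured here, and they are shown for what the 3 genes share. The seed (bases 2 to 8) is in capitals.
mmu-miR-208a-3p: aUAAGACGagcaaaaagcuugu
mmu-miR-208b-3p: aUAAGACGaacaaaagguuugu
mmu-miR-499-5p: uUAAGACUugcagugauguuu

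The microRNAs of *Myh6* and *Myh7* were identical at 19 of 22 bases and at 7 of 7 bases of the seed, and each of them matched the seed of the third at 6 of 7 bases.

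The 250 bases before the RefSeq start of *Myh6* (GRCm38.p6, chr14:54966608-54966857, minus strand) and before the upstream one of 2 *Myh7* starts (chr14:54994627-54994876, minus strand) are shown because the levels of these neighbors moved in opposite directions between EL and EH. Capitals mark CATTCC, the letters that TEAD factors are known to bind, which read GGAATG where they lie on the other strand.
Myh6, upstream: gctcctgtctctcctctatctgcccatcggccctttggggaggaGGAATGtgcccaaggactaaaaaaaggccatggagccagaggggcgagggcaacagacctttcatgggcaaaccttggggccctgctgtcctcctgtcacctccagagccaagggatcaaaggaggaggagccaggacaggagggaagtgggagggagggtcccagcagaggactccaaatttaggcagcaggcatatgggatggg
Myh7, upstream: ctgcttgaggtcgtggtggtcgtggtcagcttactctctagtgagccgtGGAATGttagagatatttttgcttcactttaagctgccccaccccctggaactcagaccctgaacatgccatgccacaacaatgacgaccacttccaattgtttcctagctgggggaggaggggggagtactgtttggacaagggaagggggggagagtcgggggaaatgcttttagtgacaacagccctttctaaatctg

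Both windows held CATTCC on the strand opposite to the gene, 206 and 201 bases before the start, and the window of the second *Myh7* start did not. CATTCC stands on either strand in 12.6% of the 32851 promoter windows of this length. Searched on both strands as well were TATAAA, held by 12.4% of windows, AGGTCA by 14%, AGATAA by 9.99% and GGTGTG by 16.3%, with the CArG box in 1.47% and the MEF2 site in 2.92%. The windows of *Myh6* and *Myh7* held none of these letters. A match of letters is a description and not a bound site.

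*Mybphl* showed the widest difference between the fractions among the 10 genes, at both stages, and its probe is shown for that (mm9, chr3:108178294-108178353, plus strand).
Mybphl, probe: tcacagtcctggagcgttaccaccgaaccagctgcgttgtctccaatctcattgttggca

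The EL samples read 50.4, 61.3, 41.2 and 34.5, the EH samples 3907, 3641, 3531 and 3870, the PL samples 54.8, 224, 377 and 65.2, and the PH samples 14940, 16470, 20400 and 14900. All ITGA6high samples lay above all ITGA6low samples, and PL samples 3 and 4 stood above PL samples 2 and 5. EH was 81.6-fold above EL (log2 6.35, SE 0.479, adjusted p = 1.84e-06) and PH 125.5-fold above PL (log2 6.97, SE 0.479, adjusted p = 2.83e-07), with no interaction past the threshold (0.62, SE 0.678, adjusted p = 0.783). With normexp background correction, these differences were smaller, at 5.06 and 6.29. From EH to PH the level rose 4.43-fold (log2 2.15, adjusted p = 0.00573). The change from EL to PL was 1.53 (adjusted p = 0.038), but both groups overlapped (exact permutation p = 0.0571), and without PL sample 4 it was 1.02 with an adjusted p of 0.0887. The adjusted p was also above 0.05, at 0.0503 to 0.114, without EL sample 2, 6 or 8, EH sample 2, 3 or 8, PL sample 3 or PH sample 3.

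The 3 genes with the pattern most like *Mybphl* were *Stard10*, *Sln* and *Fgf12*, with r = 0.996, 0.996 and 0.994 over 16 microarrays. *Sln* encodes sarcolipin, an inhibitor of the calcium pump known from atrial muscle. The PL samples read 704, 3098, 6837 and 1123 for *Sln*, and the EL samples 327 to 1013. For *Fgf12* they read 16.7, 60.6, 112 and 19.2, and for *Stard10* 105, 188, 309 and 145. Within PL, all 4 genes were highest in sample 4 and next in sample 3. The 3 genes were picked for their likeness to *Mybphl* over these same samples, so this shared order is partly built in. The summed signal of 11 conduction system markers, with *Gja5* the most abundant in EL, EH and PH and *Gjc1* in PL, was 2483 to 2728 (EL), 10550 to 15950 (EH), 1951 to 3132 (PL) and 15350 to 18240 (PH), and its part in the values of *Mybphl* was not tested.

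*Mybpc3* and *Mybpc1*, the cardiac and the slow skeletal gene of myosin binding protein C, were both lower in EH than in EL. *Mybpc3* is covered by a probe on chromosome 2 (mm9, chr2:90976552-90976611). The EL samples read 85460, 77930, 85950 and 82250, the EH samples 63050, 59100, 56210 and 65280, the PL samples 129200, 129200, 124800 and 111400, and the PH samples 84660, 71110, 79650 and 73420. EL lay above EH and PL above PH without overlap, and the differences stayed under 3-fold. EH was 1.36-fold below EL (log2 -0.45, SE 0.075, adjusted p = 0.00159), and PH 1.60-fold below PL (log2 -0.68, SE 0.075, adjusted p = 2.38e-05). PL was 1.49-fold above EL (log2 0.58, adjusted p = 6.8e-05). The rise of 0.34 from EH to PH (adjusted p = 0.00515) became 0.09 when scaled to the 75th percentile (adjusted p = 0.627).

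*Mybpc1* read 80.4, 64.9, 107.4 and 69.3 in the EL samples, 8.998, 15.9, 9.28 and 15.8 in the EH samples, 14.7, 15.3, 17.0 and 27.8 in the PL samples, and 4.84, 3.58, 3.89 and 3.55 in the PH samples. Its microarrays well above background numbered 4 (EL), 2 (EH), 1 (PL) and 0 (PH), and EL lay above all other samples. EL was 6.56-fold above EH (log2 -2.71, SE 0.25, adjusted p = 9.92e-06) and 4.37-fold above PL (log2 -2.13, adjusted p = 2.77e-05). With normexp, which compresses dim signals, these differences were -0.90 and -0.84. With every signal below the dimmest measured one raised to it, they were -2.595 and -1.96. All PH samples lay below all PL samples (at least 1.01-fold, adjusted p = 3.2e-05). Neither group measured it throughout, so this comparison is not counted among the measured ones. The interaction of *Mybpc1* was 0.51 (adjusted p = 0.667), but it rests on the same dim groups and is not interpreted. A second *Mybpc1* probe was well above background on 0 of 16 microarrays.

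*Mybph*, which encodes myosin binding protein H of fast skeletal muscle, was dim, with 54.7, 23.6, 29.2 and 15.8 in the EH samples and 3.27, 12.3, 11.2 and 3.24 in the EL samples. Its microarrays well above background numbered 4 (EH), 2 (PH), and 0 in EL and PL. EH was at least 1.71-fold above EL (adjusted p = 0.0326), and without EL sample 2 or 8 or EH sample 2, 3 or 6 the adjusted p was 0.057 to 0.106. On the slide with a single EH sample, which cannot test the call by itself, the log2 difference was 1.315. On the other E15.5 slide it was 3.07 (adjusted p = 0.0172). The PH samples read 15.5, 14.6, 11.0 and 21.4, and the PL samples 3.26, 3.22, 3.31 and 13.6, so that PL sample 5 lay above the lowest PH sample (adjusted p = 0.0816).

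*Myh8* and *Myh3*, the perinatal and embryonic heavy chains of skeletal muscle, are clustered with other skeletal heavy chain genes on chromosome 11. *Myh8* had 4 probes, of which the brightest lies on chromosome 11 (mm9, chr11:67121925-67121984). It is shown because heavy chain genes are close copies of each other in coding sequence, and whether it also binds another myosin messenger was not tested.
Myh8, probe 1: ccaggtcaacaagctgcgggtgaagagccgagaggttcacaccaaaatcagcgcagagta

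The EL samples read 5410, 4990, 5274 and 4910, the EH samples 8766, 7631, 8358 and 7893, the PL samples 13060, 11550, 13420 and 16840, and the PH samples 14280, 12430, 13560 and 17600. EL was lowest, EH next, and PL and PH overlapped at the top. EH was 1.59-fold above EL (log2 0.66, SE 0.118, adjusted p = 0.00233), a call lost with scaling to the 75th percentile (0.49, adjusted p = 0.119). Within the slide of EL samples 2 and 8 and EH samples 2, 3 and 8 the difference was 0.65 (adjusted p = 0.0493). The other E15.5 slide held a single EH sample, which cannot test the call by itself, and gave 0.70. PL was 2.64-fold above EL (log2 1.40, adjusted p = 1.34e-06) and PH 1.76-fold above EH (log2 0.82, adjusted p = 2.02e-04), which did not pass on the other bright probe (0.63, adjusted p = 0.227). PH and PL differed by 0.08 (adjusted p = 0.857), a difference whose sign turned with either scaling to a 75th percentile. The interaction was -0.59 (SE 0.166, adjusted p = 0.0875), and it passed with normexp and with detected probes only (adjusted p = 0.0403 in both), with the sample number as a block (adjusted p = 0.00628) and without PL sample 3 or PH sample 5 (adjusted p = 0.045 and 0.0288).

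The bright *Myh8* probes 1 and 2 differed in the same direction where both passed, but not by the same size. Probe 2 read 88.0 to 112 in the EL samples, 262 to 366 in the EH samples, 259, 278, 708 and 777 in the PL samples, and 418 to 638 in the PH samples. By this probe, EH was 3.18-fold above EL (log2 1.67, adjusted p = 0.00388) and PL 4.42-fold above EL (log2 2.14, adjusted p = 1.98e-04). Its PL samples fell into the same lower and higher pair as on *Myh6* probe 2, and these 2 probes of different genes correlated with r = 0.984 over 16 microarrays, against r = 0.911 between *Myh8* probes 1 and 2. Probes 3 and 4 were each well above background on 1 of 16 microarrays. The level of *Myh8* is uncertain for these reasons.

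**Figure D3:**
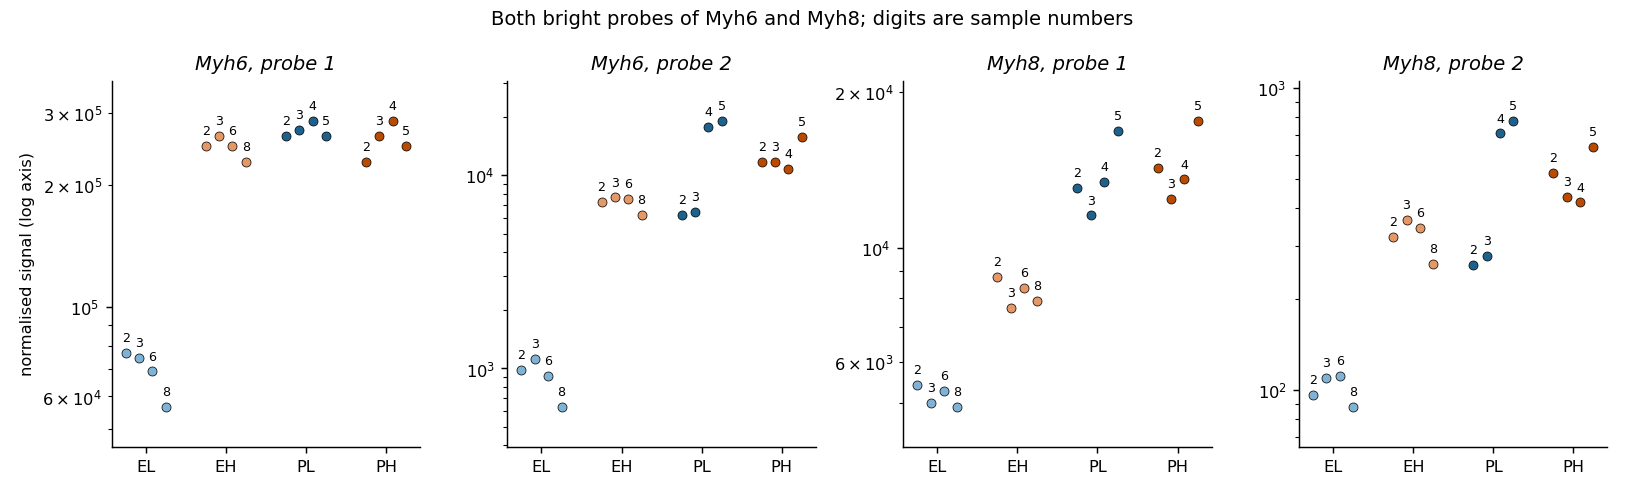
Normalized signal on log axes of both bright probes of *Myh6* and of *Myh8*, with 1 point per microarray and its sample number. On probe 2 of both genes, PL samples 4 and 5 stand above PL samples 2 and 3, whereas on probe 1 of *Myh6* all PL samples lie between 263100 and 286800.

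*Myh3* was near background. Its probes were well above background on 2 and 3 of 16 microarrays, all of them at E15.5. The brighter one read 31.0, 3.42, 9.86 and 16.5 in the EL samples and 3.40, 34.7, 3.39 and 3.47 in the EH samples, with EL sample 2 and EH sample 3 the highest, and at most 3.504 at P2. No comparison of *Myh3* passed, and the lowest adjusted p was 0.131. Of 13 skeletal muscle marker genes, *Myod1*, *Myf5*, *Myf6*, *Pax7*, *Ryr1* and *Actn3* were well above background on 0 of 16 microarrays, while *Tnni2* was the most abundant in EL, PL and PH, and *Casq1* in EH. *Tnni2* read 2426 ± 471 (EL), 613 ± 62.7 (EH), 828 ± 129 (PL) and 2485 ± 533 (PH). The summed signal of the list was 2328 to 3305 (EL), 1288 to 1650 (EH), 1127 to 1447 (PL) and 2108 to 3441 (PH). Of the 6 genes of the list measured in EH and EL, 3 passed as higher in EH, namely *Tnnt3* (0.80, adjusted p = 0.0215), *Casq1* (0.86, adjusted p = 0.00498) and *Myog*, detected above background by 4 of 4 EH and by 0 of 4 EL microarrays (at least 2.06-fold, adjusted p = 0.0405), and *Tnni2* passed as lower (-1.97, adjusted p = 1.01e-05). Of the measured probes of the array, 9.77% passed as higher and 8.94% as lower there. Of the 4 genes measured in PH and PL, *Tnnt3*, *Casq1* and *Tnni2* passed as higher, beside 14.1% of the measured probes, and *Cacna1s* as lower, beside 12.1%. *Tnnt3* was well above background on 4 of 4 PH and 0 of 4 PL microarrays. It was thus measured there through the higher group alone, as *Myog* was at E15.5. *Myog*, *Tnnt3* and *Cacna1s* were named after their values were seen. The part of skeletal muscle cells in the values of *Myh8*, *Myh3* and *Mybph* was not tested.

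*Myh10*, which encodes non-muscle myosin IIB, a motor of cell division and cell shape, fell from E15.5 to P2 in both fractions. Its probe at the end of the transcript (mm9, chr11:68630067-68630126) read 1628, 1635, 1417 and 1512 in the EL samples, 1278, 1462, 1292 and 1433 in the EH samples, 428, 483, 465 and 514 in the PL samples, and 590, 582, 548 and 684 in the PH samples. All P2 samples lay below all E15.5 samples. The fall was 3.28-fold in ITGA6low cells (log2 -1.71, SE 0.0846, adjusted p = 1.45e-08) and 2.28-fold in ITGA6high cells (log2 -1.19, adjusted p = 4.74e-07). EH and EL overlapped (-0.18, adjusted p = 0.287), PH was 1.27-fold above PL (log2 0.35, adjusted p = 0.0148), and the interaction was 0.53 (SE 0.12, adjusted p = 0.0282). Both of the last calls were lost with scaling to the 75th percentile (0.34 and 0.61, adjusted p = 0.136 and 0.125) and with the floor for dim signals (0.35 and 0.53, adjusted p = 0.0687 and 0.107). The interaction was also lost with scaling to that percentile of detected probes (0.59, adjusted p = 0.0626) and without EL sample 2 or 3, EH sample 2 or 6 or PL sample 2 (adjusted p = 0.0554 to 0.0646). A second *Myh10* probe was well above background on 0 of 16 microarrays.

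Markers of other cells moved between the same groups. Of 9 fibroblast markers, 8 were measured, and 7 of them were lower at P2 in ITGA6low cells, beside 23.1% of the measured probes. In ITGA6high cells 8 were lower, beside 18.9%. *Pdgfra*, *Lum* and *Postn* in both fractions and *Fbln2* in ITGA6low cells counted as measured through the E15.5 group alone. This favors a fall, so these counts cannot be weighed against the shares. *Col1a1*, *Col1a2*, *Col3a1* and *Dcn* qualified at both stages and were lower at P2 in both fractions. The same held for *Fbln2* in ITGA6high cells. *Col1a2* was the most abundant, and the summed signal was 13600 to 23430 (EL), 5812 to 11570 (EH), 534 to 1664 (PL) and 575 to 871 (PH). Of 8 epicardial markers, 8 of 8 measured were lower at P2 in ITGA6low and 6 of 6 in ITGA6high cells. All of them qualified through EL alone in ITGA6low cells. In ITGA6high cells, all but *Wt1* and *Krt19* qualified through EH alone, so these counts are descriptions too. *Msln* was the most abundant at E15.5, *Tbx18* in PL and *Krt19* in PH. The sum was 3347 to 4352 (EL), 1197 to 2892 (EH), 70.04 to 221 (PL) and 167 to 273 (PH). The sum of 8 erythroid markers was 3776 to 30960 (EL), 5668 to 34560 (EH), 368 to 899 (PL) and 271 to 359 (PH). Of 9 endothelial markers, 7 were measured in EH and EL. Of these, 5 passed as higher in EH, beside 9.77% of the measured probes, and 0 as lower, beside 8.94%. *Cdh5*, *Tie1*, *Emcn* and *Plvap*, which passed, and *Npr3*, which did not, counted as measured through EH alone. This favors EH, so the count cannot be weighed against these shares. *Kdr* and *Nfatc1* qualified in both groups, and *Nfatc1* passed as higher in EH (log2 0.84, adjusted p = 0.0338). The most abundant, *Kdr*, did not pass, with 1037 ± 74.8 in EL and 834 ± 197 in EH (log2 -0.34, adjusted p = 0.802). *Cdh5* (212 ± 175), *Tie1* (151 ± 114) and *Emcn* (77.5 ± 58.7) were well above background on 4 of 4 microarrays of EH and on 0 of the others, and the sum of the 9 markers was 1152 to 1315 (EL), 1168 to 3085 (EH), 410 to 1711 (PL) and 644 to 1295 (PH). Stage, slide and sorting route cannot be told apart here, and the part of other cells in the values of *Myh10* was not tested.

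Over the set, 9 genes were measured in EH and EL. Of these, 4 passed as higher in EH (*Myh6*, *Myh8*, *Mybph* and *Mybphl*), where 4.27% of all probes did, and 4 as lower (*Myh7*, *Myh7b*, *Mybpc1* and *Mybpc3*), where 3.83% did, and *Myh10* did not pass. Among the probes that were measured in any group, 18.7% passed in either direction. *Mybpc1* counted as measured through EL alone and *Mybph* through EH alone, which favors the direction in which each passed. By the fitted change, 3 genes were called higher (*Myh6*, *Mybph* and *Mybphl*), beside 1.17% of all probes, and 2 lower (*Myh7* and *Mybpc1*), beside 0.454%. The call of *Mybph* rests on EL signals in the background, against which the bound is 1.71-fold. With the floor for dim signals or with normexp its difference was 0.77 or 0.44 on the log2 scale, and 2 genes were called higher, as was also so with scaling to the 75th percentile, where *Myh6* stayed below 3-fold. The median log2 fold change of the 9 genes was -0.18, and that of the measured probes -0.05.

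In PH against PL, 7 genes were measured. Here 2 passed as higher (*Myh10* and *Mybphl*), beside 6.15% of all probes, 3 as lower (*Myh7*, *Myh7b* and *Mybpc3*), beside 5.41%, and *Myh6* and *Myh8* did not pass. Of the measured probes, 26.2% passed in either direction. *Mybphl* was called higher, beside 1.73% of all probes, and *Myh7* lower, beside 0.916%. The median of the 7 genes was -0.09, against -0.02 for the measured probes.

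The interaction was fitted for the 9 genes measured in any group, of which *Mybpc1* and *Mybph* were not measured in PH and PL. *Myh10* passed as higher, beside 1.81% of all probes, and *Myh6* and *Myh7* as lower, beside 1.35%, with 7.2% of the measured probes passing in either direction. Called were 0 higher and 2 lower (*Myh6* and *Myh7*), where 0.602% of all probes were called in each direction. The median of the 9 genes was -0.23, against 0.03 for the measured probes.

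From E15.5 to P2, 8 of 8 measured genes passed in ITGA6low cells, 4 higher (*Myh6*, *Myh8*, *Mybpc3* and *Mybphl*), beside 9.7% of all probes, and 4 lower (*Myh7*, *Myh7b*, *Myh10* and *Mybpc1*), beside 10%. Of the measured probes, 44.4% passed in either direction. *Myh6* was called higher, beside 1.6%, and *Myh10* and *Mybpc1* lower, beside 2.15%, and the median was 0.10, against -0.01 for the measured probes. In ITGA6high cells, 8 genes were measured, 3 of which passed as higher (*Myh8*, *Mybpc3* and *Mybphl*), beside 9.12%, and 2 as lower (*Myh7* and *Myh10*), beside 8.37%, while 38.5% of the measured probes passed in either direction. *Mybphl* was called higher, beside 1.3%, and *Myh7* lower, beside 2.1%, with a median of 0.0045, against 0.02 for the measured probes. Comparisons that share a group, such as EH against EL and PL against EL, are not independent of each other.

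**Figure D4:**
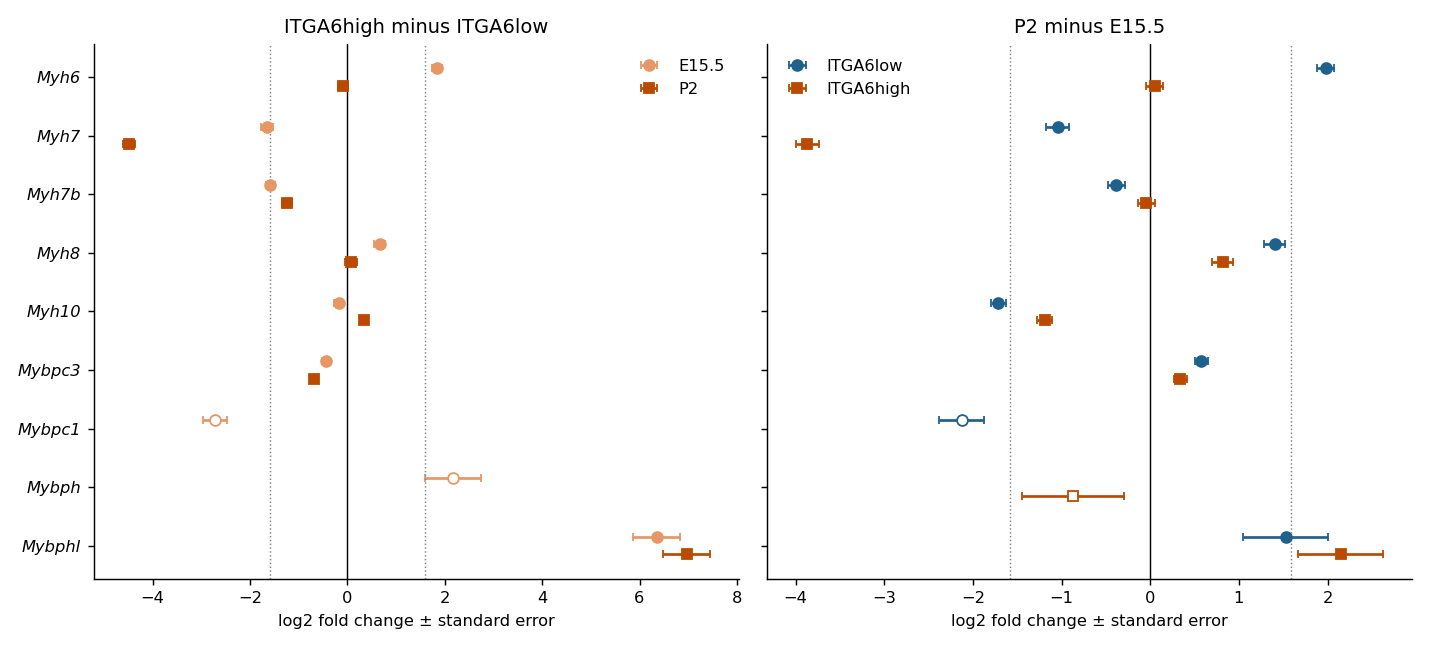
Log2 fold changes of the measured genes with their standard errors from limma, ITGA6high minus ITGA6low on the left and P2 minus E15.5 on the right, with dotted lines at 3-fold and open symbols where 1 of both groups was not well above background on all 4 microarrays. *Mybphl* lies at 6.35 and 6.97 on the left, and *Myh7* moves from -1.66 at E15.5 to -4.48 at P2.

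Other heavy chain and binding protein genes were followed from a list of 8. *Myh1*, *Myh2* and *Myh4* of adult skeletal muscle and *Myh11* of smooth muscle were well above background on 0 of 16 microarrays. *Myh9* and *Myh14* encode the other non-muscle heavy chains. *Myh9* fell from 2024 in EL to 657 in PL (log2 -1.64, adjusted p = 1.1e-04) and from 1973 in EH to 533 in PH (log2 -1.85), as *Myh10* did, while *Myh14* rose from 165 to 1135 (log2 2.90, adjusted p = 3.3e-06) and from 79.1 to 568 (log2 2.84). *Myh14* was lower in the ITGA6high fraction at both stages (-0.96 and -1.02, adjusted p = 0.0428 and 0.0229). *Mybpc2*, the fast skeletal myosin binding protein C, was 3.03-fold lower in PH than in PL (log2 -1.60, adjusted p = 4.84e-04), with means of 95.1 and 292. *Myh13*, the heavy chain of eye muscles, was well above background on all 4 microarrays in PH alone, at 25.1 ± 3.15, at least 1.29-fold above PL (adjusted p = 0.0103).

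The scaffold that carries the thick filament was followed through 12 genes of titin, the M-band and their partners. Of these, 10 were higher at P2 in ITGA6low cells, beside 21.3% of the measured probes, and 9 in ITGA6high cells, beside 19.7%, with 0 lower in either, and medians of 1.15 and 1.13, against -0.01 and 0.02 for the measured probes. *Myom2*, which encodes the M-band protein myomesin 2, had means of 4195 (EL), 11050 (EH), 47210 (PL) and 64330 (PH). It rose 11.2-fold in ITGA6low cells and 5.81-fold in ITGA6high cells, and its pattern was the most like that of *Myh8* (r = 0.977 over 16 microarrays). *Trim54*, a muscle RING finger gene, also separated the fractions, 9.22-fold higher in EH than in EL and 7.78-fold higher in PH than in PL. *Lrrc39*, an M-band partner of myosin, was lower in the ITGA6high fraction by 0.92 at E15.5 and 1.17 at P2. Of the measured genes of this list, the ITGA6high fraction had 4 higher and 1 lower of 11 at E15.5, and 3 higher and 3 lower of 12 at P2. In either direction 18.7% of the measured probes passed at E15.5 and 26.2% at P2.

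Among 14 genes of myosin folding, light chain kinases and myosin phosphatase, *Smyd2* had the widest differences between the fractions. *Smyd2* encodes a lysine methyltransferase that modifies the chaperone HSP90. Its mean was 18710 ± 1164 (EL), 6061 ± 971 (EH), 23730 ± 1798 (PL) and 516 ± 84.8 (PH). It was 3.11-fold lower in EH than in EL (log2 -1.64, adjusted p = 2.07e-06) and 46.3-fold lower in PH than in PL (log2 -5.53, adjusted p = 3.59e-11). In the ITGA6high fraction, 1 gene was higher and 3 lower of 13 measured at E15.5, and 0 higher and 3 lower of 12 at P2, beside the same 18.7% and 26.2%. Whether these counts differ from those shares was not tested. The chaperone gene *Hsp90aa1* fell with stage by 1.37 in ITGA6low and 1.10 in ITGA6high cells, and *Mylk3*, the cardiac myosin light chain kinase, rose by 0.98 and 0.91.

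Of 21 known regulators of *Myh6* and *Myh7*, 16 were measured at each stage, and in the ITGA6high fraction 1 was higher and 4 lower at E15.5, beside 18.7% of the measured probes in either direction, and 6 higher and 2 lower at P2, beside 26.2%. *Tbx5*, a T-box factor with a role in atrial identity, had means of 952 (EL), 6291 (EH), 1141 (PL) and 12850 (PH), and was 6.59-fold and 11.6-fold higher in the ITGA6high fraction. *Dio2*, whose enzyme converts thyroid hormone to its active form, was 8.14-fold lower in EH than in EL and 3.92-fold lower in PH than in PL, with means of 172 (EL), 21.2 (EH), 202 (PL) and 51.9 (PH). The receptor gene *Thra* rose with stage by 0.57 in ITGA6low and 0.59 in ITGA6high cells (adjusted p = 4.65e-04 and 3.97e-04), with differences between fractions of 0.09 and 0.11 that did not pass. *Gata4* was lower in EH than in EL by 0.57 and gave -0.02 at P2, with an interaction of 0.55 (adjusted p = 0.00293). *Hopx* was lower in the ITGA6high fraction by 0.31 and 0.97, with an interaction of -0.67 (adjusted p = 0.00465).

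The light chains are the partners of the heavy chains in the myosin head. Of 10 measured genes, the ITGA6high fraction had 4 higher and 3 lower at E15.5, beside 18.7% of the measured probes in either direction, and 6 higher and 3 lower at P2, beside 26.2%, led by *Myl1* and *Myl7* on the higher side and *Myl3* and *Myl2* on the lower side.

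By Pearson's r over the 16 microarrays, a description over samples that share groups, the genes most like *Myh6* were *Tlcd2* (r = 0.966), *Camk2b* (0.954) and *Pde8a* (0.949), and those most like *Myh7* after *LOC100862557* were *S1pr3* (0.985) and *Ripk4* (0.982). *Camk2b*, which encodes a calmodulin-dependent kinase, had means of 129 (EL), 400.2 (EH), 324 (PL) and 400.1 (PH), with EL the lowest, as for *Myh6*. *Ripk4* had means of 431 (EL), 76.3 (EH), 194 (PL) and 6.49 (PH). *Grik3* (0.987), *Rcor2* (0.983) and *Fdxr* (0.978) were nearest to *Myh7b*, and *Grik3*, a glutamate receptor gene, had means of 297 (EL), 10.4 (EH), 114 (PL) and 7.29 (PH). *Stat5a* (0.973) and *Tmem38a* (0.972) followed *Myom2* for *Myh8*. *Anxa2* (0.990), *Rpl36a* (0.990) and *Nxn* (0.987) were nearest to *Myh10*, *Usp13* (0.975), *Mif4gd* (0.974) and *Tmem25* (0.973) to *Mybpc3*, and *Thoc6* (0.983), *Rnf208* (0.971) and *Eppk1* (0.968) to *Mybpc1*. For the dim *Mybph* the nearest were *Caprin1* (0.872), *Slc46a1* (0.869) and *6030498E09Rik* (0.868).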

How the data were processed

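Each of the 16 samples was measured on its own Agilent microarray. The authors deposited the intensity of every spot, read by Feature Extraction 10.7.3.1, whose processed signal is background-subtracted. The authors' own log2 values, quantile normalized, came as a second table. Processed intensities were used here: spots marked as outliers were left out, spots of a probe averaged, and the 55681 probes quantile normalized and log2 transformed, as the study's methods describe. The model had a coefficient for each of the 4 groups and was fitted to all probes by limma 3.58.1 (R 4.3.3), with Benjamini-Hochberg adjustment over them. Of several probes for a gene, the brightest by mean log2 signal represents it. Two-sided exact permutation tests were added. Python 3.11.15 and pandas 2.3.3 made the tables. The number of microarrays limits the precision. The study reports 4 independent sorting experiments for each population but does not say whether the pools came from separate litters. The p-values therefore measure the spread between these samples.

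Positions are in mm9, as the files give them, and promoter and microRNA sequences are from RefSeq (GRCm38.p6). The genes, lists and tests were chosen with earlier results of these data known. Named were all 10 genes, up to 4 of the most changed measured genes of each list, the most abundant and defining genes of the cell type lists, and the 3 genes most correlated with each member. Some genes that this rule names are not reported here.

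EL samples 2 and 8 and EH samples 2, 3 and 8 shared 1 slide, the other E15.5 samples another, and all P2 samples a slide of their own. Deviations from the group mean of EL and EH samples of the same number correlated with r = 0.256, 0.189, 0.45 and 0.379, above the limit of 0.1 for a pairing, whereas those at P2 gave 0.375, 0.176, -0.031 and 0.542. The labels give both fractions of a stage the same numbers but do not say that a number marks a shared pool or day. The pairing therefore rests on these correlations. Of 120 pairs of microarrays, 0 held identical values. Alternatives were scaling to the 75th percentile, normexp with an offset of 50, the authors' deposited values, detected probes only, a floor for dim signals, sample number or slide as a block, single slides, the methods' test (analysis of variance with Tukey's test), leaving out each sample, and, chosen after seeing the data, scaling to the 75th percentile of the probes measured on all 16 microarrays. The procedure was tested on simulated data.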

Additional observations from a re-analysis of the deposited data

Results flagged for a closer look

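The difference between ITGA6high and ITGA6low cells differed between the stages by limma's interaction test for *Myh6* on both probes (log2 -1.93 and -2.80), for *Myh7* (-2.83) and for *Myh10* (0.53). Stage was tied to slide and sorting route. A distant microarray was sought in 38 groups of 4 values, where chance gives about 1 in 20, and 1 was found: EL sample 8 read 234700 on *Myh7* where the other three shared the value 248600 given by their rank.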

How the results depend on the processing

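Of the single-gene results under an alternative, 949 kept their direction and their side of the threshold, 31 lost and 7 gained the call, and 9 turned their sign, all 9 of them among differences that had not passed. Those were PH against PL for *Myh6* by its other probe (0.20) and for *Myh8* with scaling to the 75th percentile (-0.17), to that of detected probes (-0.11) and over single samples left out (-0.020 to 0.18), PH against EH for *Myh6* (-0.0048 to 0.11 over samples left out) and *Myh7b* (0.030 with scaling to the 75th percentile, -0.099 to 0.036 over samples left out), and the interaction of *Mybph* (-0.80 to 0.062 over samples left out).

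Normexp, which raises dim signals, left fewer probes of the whole array called at 3-fold: in EH against EL 164 higher and 43 lower (654 and 253 in the report's setting), in PH against PL 276 and 142 (966 and 510), in PL against EL 208 and 252 (891 and 1198), in PH against EH 186 and 240 (723 and 1167), and for the interaction 95 and 138 (335 each). A floor at the dimmest measured signal gave 426 higher in EH against EL, 572 and 302 in PH against PL, 549 and 599 in PL against EL, and 631 lower in PH against EH. Among the 10 genes, normexp called 1 lower instead of 2 in EH against EL and in PL against EL, and let 2 instead of 1 pass as higher in the interaction, where the floor called 1 instead of 0. The gene gained in the interaction was *Mybpc1* in both cases, which was not measured in PH and PL. A floor raises both of these groups to nearly the same level, so that its interaction then mostly repeats the difference between EH and EL by construction. Of the genes higher in EH than in EL, 2 instead of 4 passed on the smaller E15.5 slide, which held 2 EL samples and a single EH sample, taken to vary like the other groups, so that this count says nothing about stability. Of those higher in PH than in PL, 1 instead of 2 passed with scaling to the 75th percentile or the floor, and in the interaction 0 instead of 1 with either 75th percentile. Leaving out single samples gave 1 to 3 genes called lower in EH against EL, 1 to 2 called higher in PL against EL, and 0 to 1 passing as higher in the interaction. The cause of these changes was not tested where none is named. With the sample number as a block, the interaction of *Myh8* passed (-0.59, adjusted p = 0.00628). At P2, however, the samples numbered 4 gave r = -0.031, below the limit for a pairing, while those of the other numbers lay above it. The block changed no other call on the 10 genes. Scaling to the 75th percentile shifted the median of the measured probes to -0.11 in EH against EL. Signals of *Mybpc1*, *Mybph* and *Myh3* near background limit what can be said of them.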

Other observations

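The summed signal of 9 smooth muscle and pericyte markers, with *Cnn1* the most abundant at E15.5 and *Smtn* at P2, and with *Myh11* well above background on 0 of 16 microarrays, was 18000 to 21210 (EL), 25560 to 30130 (EH), 11000 to 19200 (PL) and 15070 to 27780 (PH). These sums hold members that moved apart: from EL to PL, *Cnn1* fell 12.9-fold and *Tagln* 5.67-fold, while *Smtn* rose 4.28-fold. *Cnn1* and *Tagln* passed as 5.37-fold and 8.03-fold higher in PH than in PL, and *Smtn* did not pass there. The summed signal of 8 leukocyte markers, with *Itgam* the most abundant in all 4 groups, was 3170 to 5346 (EL), 4396 to 14310 (EH), 4740 to 12140 (PL) and 3199 to 3590 (PH), and EH sample 6 was the highest. *Itgam* made up most of that sum in PL (mean 7988), where 5 of the 8 genes were well above background on 0 of 4 microarrays, and *Cd68* passed as 3.35-fold higher in EH than in EL (adjusted p = 0.00481). Of a neural list whose sum is not reported here, *Dbh*, which encodes an enzyme of noradrenaline synthesis, read 94.1 ± 26.7 (EL), 285 ± 49.9 (EH), 890.2 ± 390.5 (PL) and 2456 ± 196 (PH) (SD, n = 4). Their part in the values of the 10 genes was not tested.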
